A study of Mus musculus with 6 samples.

Results

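The 8 genes described here encode the alpha and beta crystallins of the mouse: the alpha crystallins Cryaa and Cryab and the beta crystallins Cryba1, Cryba2, Cryba4, Crybb1, Crybb2 and Crybb3. They were taken as every non-control probe whose RefSeq accession belongs to one of these genes, which gave 12 probes of 39429 and 8 of the 24409 genes tested. The genes were chosen by their log2 ratios of Cy3 over Cy5 on these arrays, which were known when the list was drawn up, so their values are given as a description and no test of them is offered as support. All 8 passed the filter on dim probes, and all 12 probes were well above background in both dyes on 6 of 6 arrays, with 0 saturated spots and 0 spots marked as outliers.

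The study injected 1 µM of SH-42, SH-80 or phosphate-buffered saline (PBS, the control) into the vitreous of the right eye of adult male C57BL/6 mice, with 12 mice per group. Retinas were collected 7 days later and pooled by 4, and pooled RNA was hybridised to 2-colour Agilent oligonucleotide arrays, 3 for SH-42 and 3 for SH-80. SH-42 and SH-80 are code names that the labels do not explain further. By the labels every array carried compound-treated retina in Cy3 and control retina in Cy5, with no array of exchanged dyes. The direction of every log ratio rests on these labels, which were not checked otherwise. The labels do not say which pool went on which array. With 12 control mice, the right eye of each and 4 retinas per pool, there were fewer control pools than the 6 arrays. By these numbers some control pools were used on more than 1 array, so the 6 log ratios are not independent. The p-values measure only the spread between these 6 arrays.

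Values are log2 ratios of Cy3 over Cy5 after background correction and loess normalization within each array, so that by the labels a positive value means higher in the compound pool than in the control pool. The authors' deposited table runs the other way, Cy5 over Cy3, with correlations near -1 to the scanner ratios on every array. With its sign turned it gave the same number of positive genes among the 8 on each array except SH-42 replicate 2, where 6 rather than 7 were positive. No array file carries a gene name column, so names come from the RefSeq accessions. Cryaa, Cryab, Crybb1 and Crybb2 had 2 probes each, and the brighter one stands for the gene unless stated. Cryba1 had 1 probe printed as 10 spots, and Cryba2, Cryba4 and Crybb3 had 1 probe in 1 spot each.

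Crystallins are the main soluble proteins of the vertebrate lens. The alpha crystallins are small heat shock proteins that hold unfolding proteins in solution, and Cryab is also made in muscle, heart and glia. The beta crystallins are structural proteins built from Greek key folds, with acidic (A) and basic (B) members that assemble with each other, and are related to the monomeric gamma crystallins of the lens fibre core. Crystallin transcripts have also been described in the retina, including after injury. In bulk tissue, fewer cells of a type and less RNA per cell cannot be told apart.

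The genes lie on 5 chromosomes, and their upstream regions are shown first as a description. Whether promoter elements bear on the log ratios was not tested. RefSeq promoter entries (GRCm38.p6, 250 bases before the start site searched) were matched for 7 of the 8 genes, all but Cryab. Each sequence below is the 200 bases before the start site on the gene's strand, 5′ to 3′, and the capitals mark matches to TGCTGA, the core of the recognition element of the Maf transcription factors that act in lens fibre cells, and to TATAAA, the TATA box. The 4 genes shown are 1 alpha crystallin and 3 beta crystallins, among them the neighbours Cryba4 and Crybb1, whose log ratios parted on 1 array.
Cryaa: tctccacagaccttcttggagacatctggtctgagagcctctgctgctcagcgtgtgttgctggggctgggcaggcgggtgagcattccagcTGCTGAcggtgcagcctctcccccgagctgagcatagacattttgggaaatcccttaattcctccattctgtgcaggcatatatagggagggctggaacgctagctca
Cryba1: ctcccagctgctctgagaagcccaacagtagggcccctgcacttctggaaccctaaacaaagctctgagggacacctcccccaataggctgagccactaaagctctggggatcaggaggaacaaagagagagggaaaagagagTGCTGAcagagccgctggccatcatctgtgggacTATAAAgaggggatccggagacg
Cryba4: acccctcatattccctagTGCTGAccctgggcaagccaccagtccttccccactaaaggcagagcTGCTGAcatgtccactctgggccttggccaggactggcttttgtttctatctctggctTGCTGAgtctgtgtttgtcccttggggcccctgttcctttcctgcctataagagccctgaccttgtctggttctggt
Crybb1: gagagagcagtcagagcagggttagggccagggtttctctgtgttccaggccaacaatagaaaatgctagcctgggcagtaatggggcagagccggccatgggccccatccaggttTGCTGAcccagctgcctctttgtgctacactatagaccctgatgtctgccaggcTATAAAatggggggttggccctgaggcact
These windows are chr17:31677731-31677930 on the plus strand (Cryaa), chr11:77725294-77725493 on the minus strand (Cryba1), chr5:112252519-112252718 on the minus strand (Cryba4) and chr5:112255620-112255819 on the plus strand (Crybb1).

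TGCTGA, searched on both strands, was present in 6 of the 7 matched promoters, and in 16.1% of all 32851 promoters in the table. Its matches began 108 bases before the start site in Cryaa, 149 in Cryba2, 84 in Crybb1, 67 in Crybb3 and 57 in Cryba1. Cryba4 held 3 matches, at 182, 135 and 77 bases before the start. TATAAA, searched on the gene's strand, occurred in 2 of the 7, Crybb1 at 30 bases and Cryba1 at 23 bases before the start, against 7.59% of all promoters, and no match to it overlapped a TGCTGA match. The letters GAANNTTC, an inverted heat shock element repeat searched on both strands, were in 0 of the 7 windows and in 6.69% of all promoters. A match describes letters in the window and is not evidence of binding.

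Cryaa, the alpha crystallin that is nearly restricted to the lens, gave log2 ratios of 1.04, 0.17 and -2.14 on SH-42 replicates 1 to 3 and 2.20, -2.92 and 2.01 on SH-80 replicates 1 to 3. Its dimmer probe gave 1.20, 0.30 and -1.60, then 2.15, -2.16 and 2.29. Both probes were high on SH-42 replicate 1 and SH-80 replicates 1 and 3, low on SH-42 replicate 3 and SH-80 replicate 2, and the arrays of both compounds overlapped. Cryab, the more widely expressed partner, gave 0.22, 0.00 and -1.78 for SH-42 and 1.61, -2.36 and 1.64 for SH-80. Its other probe followed, with 0.12, -0.06 and -1.37, then 1.34, -1.86 and 1.41. Cryab thus stood near 0 on both SH-42 arrays where Cryaa was at or above 0, and had the same high and low arrays for SH-80.

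Cryba1, whose transcript encodes the A3 and A1 proteins from alternative start codons, gave 1.55, 0.10 and -1.11 for SH-42 and 3.02, -1.77 and 2.87 for SH-80. For Cryba2, another acidic member, the values were 1.59, 0.67 and -0.98, then 3.07, -1.55 and 2.95. Cryba4 showed 1.30, 1.01 and -0.60, then 2.83, -1.05 and 2.70. The acidic genes shared the order of the alpha crystallins, with SH-80 replicates 1 and 3 highest and SH-80 replicate 2 lowest, and on SH-42 replicate 2 they ranged from near 0 (Cryba1) to about 1 (Cryba4).

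Among the basic genes, Crybb1 gave 1.34, -0.29 and -0.68 for SH-42 and 2.74, -1.10 and 2.63 for SH-80, and its other probe gave 1.31, -0.21 and -0.61, then 2.64, -1.20 and 2.54. Crybb2, a major beta crystallin of the lens that has also been studied in retinal axon growth, gave 1.54, 0.05 and -1.10, then 2.72, -1.68 and 2.62. Its other probe gave 1.38, 0.12 and -0.70, then 2.35, -1.13 and 2.21, closer to 0 on every array but SH-42 replicate 2. Crybb3 showed 1.37, 0.08 and -0.35, then 2.76, -0.80 and 2.80. The basic genes were above 1 on SH-42 replicate 1 and above 2 on SH-80 replicates 1 and 3, below 0 on SH-42 replicate 3 and SH-80 replicate 2, and near 0 on SH-42 replicate 2. For each of the 8 genes the SH-42 and SH-80 arrays overlapped.

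**Figure D1:**
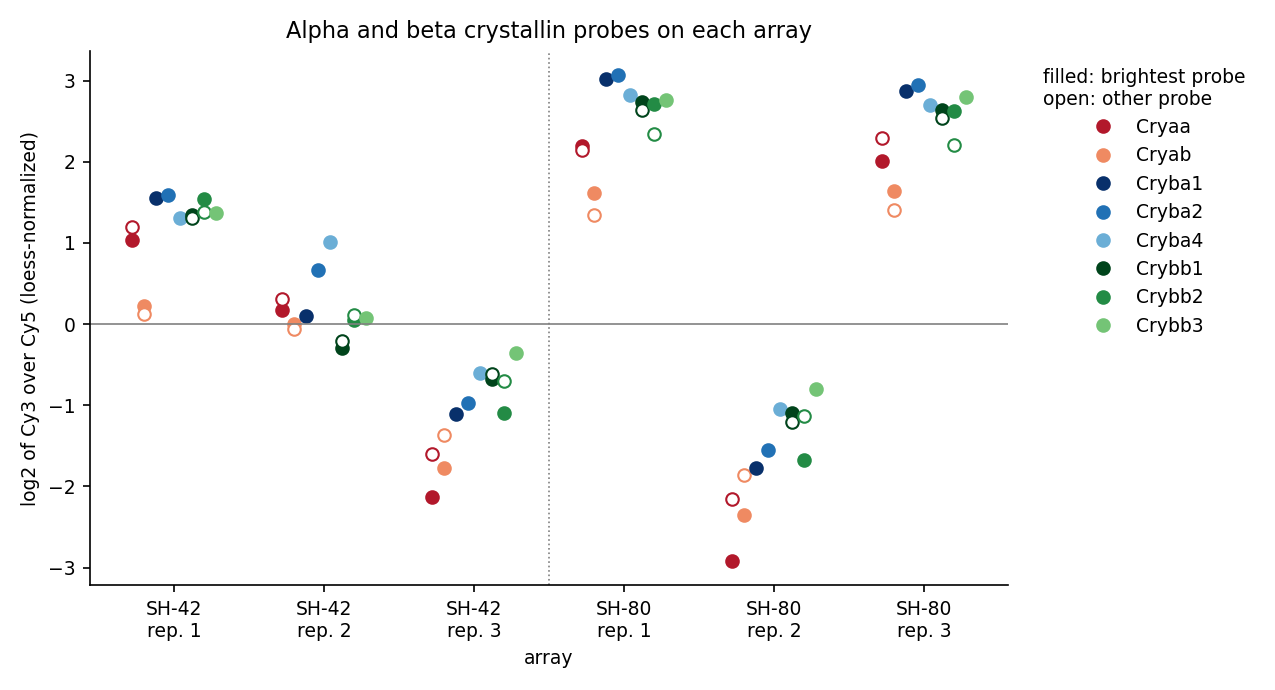
Loess-normalized log2 ratio of Cy3 over Cy5 (vertical axis) for the 12 alpha and beta crystallin probes on each of the 6 arrays (horizontal axis), with filled points for the brightest probe of a gene and open points for its other probe. All 8 genes lie above 0 on SH-42 replicate 1 and SH-80 replicates 1 and 3, and below 0 on SH-42 replicate 3 and SH-80 replicate 2.

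Counted by gene, 8 of 8 log ratios were positive on SH-42 replicate 1, 7 on SH-42 replicate 2, 0 on SH-42 replicate 3, 8 on SH-80 replicate 1, 0 on SH-80 replicate 2 and 8 on SH-80 replicate 3. The medians of the 8 were 1.35, 0.09 and -1.04 for SH-42 and 2.75, -1.61 and 2.67 for SH-80, where the median of all genes tested lay between -0.03 and -0.02 on every array. No gene of the 8 had the same sign on the 3 arrays of either compound, whereas 47.2% of all genes tested did so for SH-42 and 68.3% for SH-80. Since the choice of genes used these values, nothing is read from the contrast with those shares. The sign of the median was the same under every normalization and background setting tried on 5 of the arrays. On SH-42 replicate 2 it turned to -0.97, with 1 of 8 genes positive, under median centring without loess.

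The spots and probes of 1 array share 1 labelling and hybridization, so they show the noise between spots and not that between arrays. The 10 spots of the Cryba1 probe gave 1.55 ± 0.06, 0.101 ± 0.0512 and -1.11 ± 0.044 for SH-42 and 3.02 ± 0.0342, -1.77 ± 0.0482 and 2.87 ± 0.0709 for SH-80 (mean ± SD over 10 spots of 1 array, which are not replicates of a condition). The ranges of the spots overlapped between SH-80 replicates 1 (2.97 to 3.08) and 3 (2.78 to 3.01) and between no other pair of arrays. Between 2 probes of 1 gene the largest difference on any array was 0.106 for Crybb1, 0.499 for Cryab, 0.551 for Crybb2 and 0.758 for Cryaa. For Cryab and Crybb2 the brighter probe lay further from 0 than the dimmer one on both SH-80 replicates with positive values and on the 2 arrays with negative values. For Cryaa it did so on the negative arrays and on SH-80 replicate 1.

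**Figure D2:**
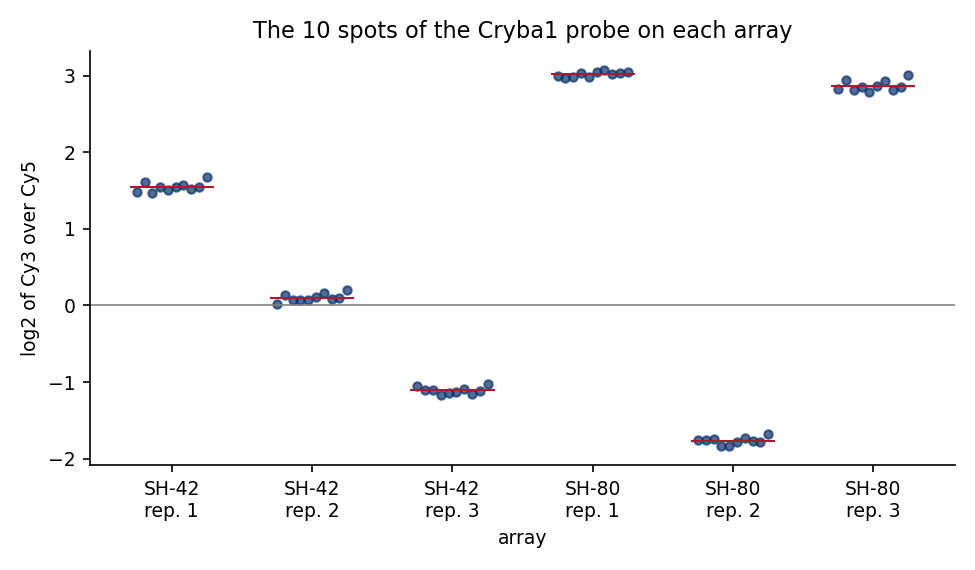
Log2 ratio of Cy3 over Cy5 (vertical axis) of the 10 spots of the Cryba1 probe on each array (horizontal axis), with a red line at their mean. The spots of 1 array have an SD of 0.0342 to 0.0709, while the array means run from -1.77 to 3.02.

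The spread of the log ratios over the arrays was found mostly in the Cy5 channel, labelled control. Normalized Cy5 signals of Cryba1 were 13.97, 15.33 and 16.41 (log2) on the SH-42 arrays and 12.59, 16.91 and 12.74 on the SH-80 arrays, a span of 4.31, while its Cy3 signals were 15.52, 15.43, 15.30, 15.61, 15.14 and 15.61, a span of 0.477. Cryba4 spanned 3.79 in Cy5 and 0.0852 in Cy3, Crybb3 3.58 and 0.120, and Crybb1 3.88 and 0.176. Cryba2 spanned 4.22 and 0.400, Crybb2 3.79 and 0.616, and Cryab 3.57 and 0.475. In normalized signal the highest Cy5 array exceeded the lowest by 19.9-fold for Cryba1, 18.6-fold for Cryba2, 14.7-fold for Crybb1, 13.8-fold for Cryba4 and Crybb2, 12.0-fold for Crybb3 and 11.9-fold for Cryab.

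On its bright probe Cryaa varied in both channels and spanned 2.79 in Cy5 and 2.33 in Cy3. Its Cy3 signals were 17.65, 17.29 and 16.29 on the SH-42 arrays and 18.00, 15.67 and 17.90 on the SH-80 arrays, and its Cy5 signals were 16.62, 17.13, 18.43, 15.80, 18.59 and 15.89, so that Cy3 was low on the arrays where Cy5 was high. The dimmer Cryaa probe did not show this, with Cy3 signals between 10.21 and 10.61 and Cy5 signals from 8.27 to 12.72. The 2 probes thus gave like log ratios and unlike channel values, and the Cy3 span of 2.33 holds for the bright probe alone. The bright probe's unnormalized Cy3 signal showed the same pattern (17.27, 17.07 and 15.74, then 17.47, 15.16 and 17.49).

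Cy5 signals of all 8 genes were highest on SH-80 replicate 2, then on SH-42 replicate 3, SH-42 replicate 2 and SH-42 replicate 1, and lowest on SH-80 replicates 1 and 3, whose order differed between genes. With 1 array per position the neighbours in this order have no replicate spread. Over the 18461 genes bright in both channels on all arrays the median span was 0.411 in Cy5 and 0.148 in Cy3, and 2.87% of genes spanned more than 2 in Cy5 against 0.0434% in Cy3. The medians of the 8 crystallin genes were 3.79 and 0.438. Which RNA each dye carried was taken from the labels, and its part in the difference between the channels was not tested.

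**Figure D3:**
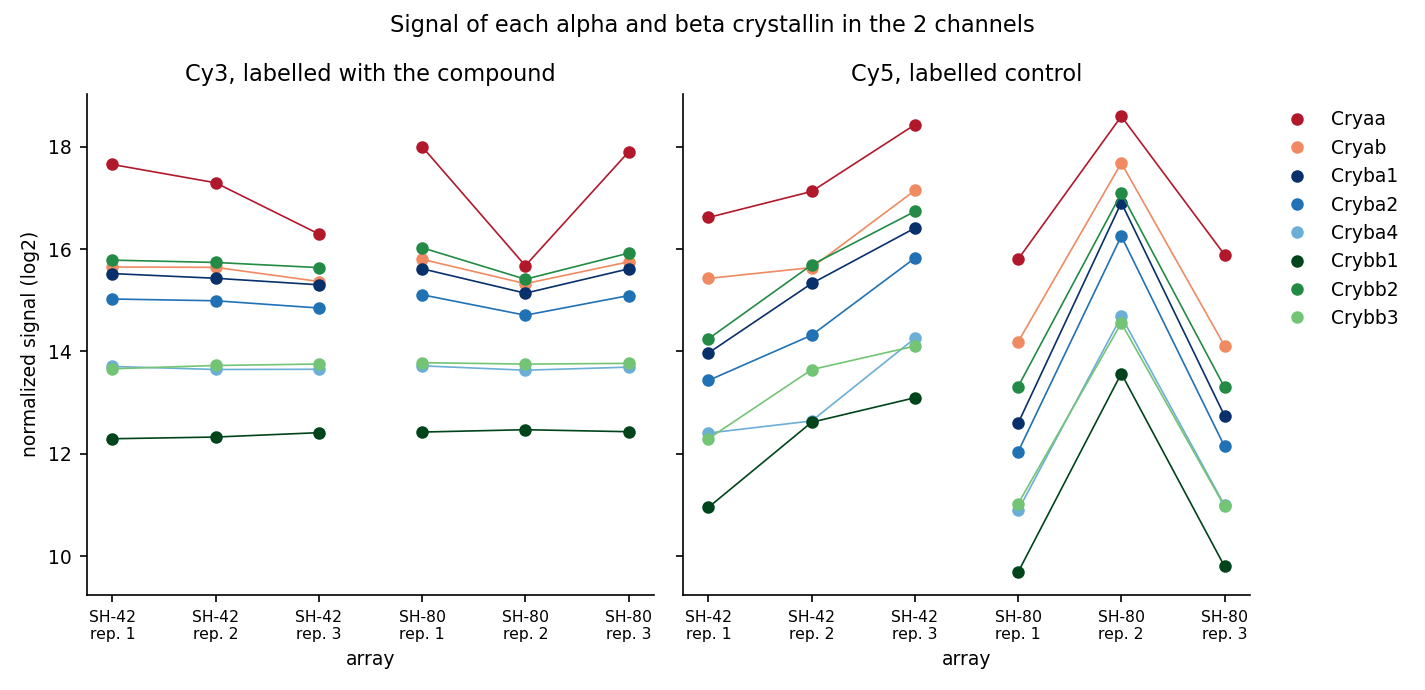
Normalized log2 signal (vertical axis) of the brightest probe of each alpha and beta crystallin gene on each array (horizontal axis), in the Cy3 channel (left) and the Cy5 channel (right), with lines joining the arrays of 1 compound only to guide the eye. The Cy5 values of every gene peak on SH-80 replicate 2, while Cy3 spans at most 0.616 except for the bright Cryaa probe (2.33).

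Alpha and beta crystallins ran in parallel at different levels of log ratio. The median of the 6 beta genes exceeded that of the 2 alpha genes by 0.82 and 1.13 on SH-42 replicates 1 and 3 and by 0.88, 1.32 and 0.92 on SH-80 replicates 1 to 3, and the medians were equal to 2 decimals on SH-42 replicate 2 (0.09 for both). Where the log ratios were positive (SH-42 replicate 1, SH-80 replicates 1 and 3), Cryab was the lowest gene and Cryba2 the highest. On the arrays with negative values (SH-42 replicate 3, SH-80 replicate 2), Cryaa was the lowest and Crybb3 the highest. On SH-42 replicate 2 the lowest was Crybb1 and the highest Cryba4. The 8 genes of 1 array lay within 1.30 to 2.12 log2 units of each other.

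Across the 6 arrays the Pearson correlation between pairs of the genes ran from 0.936 (Cryaa with Crybb1) to 0.999 (Cryba1 with Crybb2). These correlations are descriptions of 6 points that share arrays and labelling. Cryba4 and Crybb1, head-to-head neighbours on chromosome 5, differed by at most 0.09 on 5 arrays, and by 1.30 on SH-42 replicate 2, where Cryba4 was at 1.01 and both Crybb1 probes were below 0 (-0.29 and -0.21). Cryba4 rests there on a single spot. Crybb2 and Crybb3, also adjacent on chromosome 5, differed by at most 0.17 on the arrays of positive or near-zero values, while Crybb2 was lower by 0.75 on SH-42 replicate 3 and by 0.88 on SH-80 replicate 2. Hspb2, named because it lies beside Cryab on chromosome 9, is a small heat shock gene and gave -0.57, 0.06 and -1.30, then 0.90, -1.83 and 0.84. Its values had the same sign as those of Cryab except on SH-42 replicate 1, where Cryab was at 0.22.

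The first question of the design, SH-42 against control, was fitted with limma over 6 arrays with 1 coefficient per compound and Benjamini-Hochberg adjustment over all 24409 genes. Cryaa was at -0.31 ± 1.08 (log2 ± SE, n = 3) and Cryab at -0.52 ± 0.83. Cryba1 was at 0.18 ± 0.986, Cryba2 at 0.43 ± 0.955, Cryba4 at 0.57 ± 0.791, Crybb1 at 0.12 ± 0.793, Crybb2 at 0.16 ± 0.923 and Crybb3 at 0.37 ± 0.733. Of the 8 genes, 6 had positive estimates and 0 passed an adjusted p of 0.05 (limma adjusted p from 0.668 to 0.933), and 0 had an unadjusted p under 0.05. In this comparison 0.586% of all genes tested passed, 0.0533% as higher and 0.533% as lower (9.09% of the genes called were higher, against 36.4% without background subtraction, 29% in the deposited value table and 19.3% with median centring without loess). The median of the 8 was 0.17, against -0.03 for all genes. The direction of that median was not stable: it was -0.433 under median centring without loess (which put the median of all genes at -0.25), -0.109 with the slide as a fixed block and -0.495 without SH-42 replicate 1, and it was 0.758 without SH-42 replicate 3.

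In SH-80 against control the estimates were 0.43 ± 1.08 for Cryaa, 0.30 ± 0.83 for Cryab, 1.37 ± 0.986 for Cryba1, 1.49 ± 0.955 for Cryba2 and 1.49 ± 0.791 for Cryba4 (log2 ± SE, n = 3). The basic genes stood at 1.42 ± 0.793 (Crybb1), 1.22 ± 0.923 (Crybb2) and 1.58 ± 0.733 (Crybb3). Of the 8 estimates 8 were positive and 0 passed (limma adjusted p from 0.177 to 0.826), and 0 had an unadjusted p under 0.05. Of all genes tested 14.7% passed, 4.66% as higher and 10% as lower. Of the genes called 31.7% were higher, against 14.4% with processed signals and 44.4% with no filter on dim probes. For Crybb3, which had the smallest p, the 95% interval ran from -0.19 to 3.36, and for Cryaa from -2.19 to 3.05. The median of the 8 was 1.40, against -0.03 for all genes. It was 2.72 without SH-80 replicate 2, 0.625 without SH-80 replicate 1, 0.693 without SH-80 replicate 3 and 2.14 with the slide as a fixed block.

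SH-42 and SH-80 are 1 pair of compounds, compared at the same dose and day. The difference SH-42 minus SH-80 was -0.74 for Cryaa (95% interval -4.45 to 2.97), -0.82 for Cryab (-3.65 to 2.02), -1.19 for Cryba1 (-4.57 to 2.18), -1.06 for Cryba2 (-4.32 to 2.21) and -0.92 for Cryba4 (-3.63 to 1.78). For Crybb1 it was -1.30 (-4.01 to 1.41), for Crybb2 -1.06 (-4.22 to 2.10) and for Crybb3 -1.22 (-3.73 to 1.29). With limma, 0 of the 8 passed (adjusted p from 0.690 to 0.846) and 0 had an unadjusted p under 0.05, and 0% of all genes tested passed (0 genes, with 954 at an unadjusted p under 0.05). The arrays of SH-42 and SH-80 did not overlap for 0 of the 8 genes and for 13.5% of all genes. These intervals are wide enough to hold differences of several log2 units in either direction, so the compounds are not shown to act alike. The median difference of -1.06 was -2.21 with the slide as a fixed block, where SH-42 replicate 3 is the 1 SH-42 array on the slide of the 3 SH-80 arrays. Leaving out SH-42 replicate 1 gave -1.68, leaving out SH-42 replicate 3 gave -0.392, and leaving out SH-80 replicates 1, 2 and 3 in turn gave -0.290, -2.46 and -0.344.

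**Figure D4:**
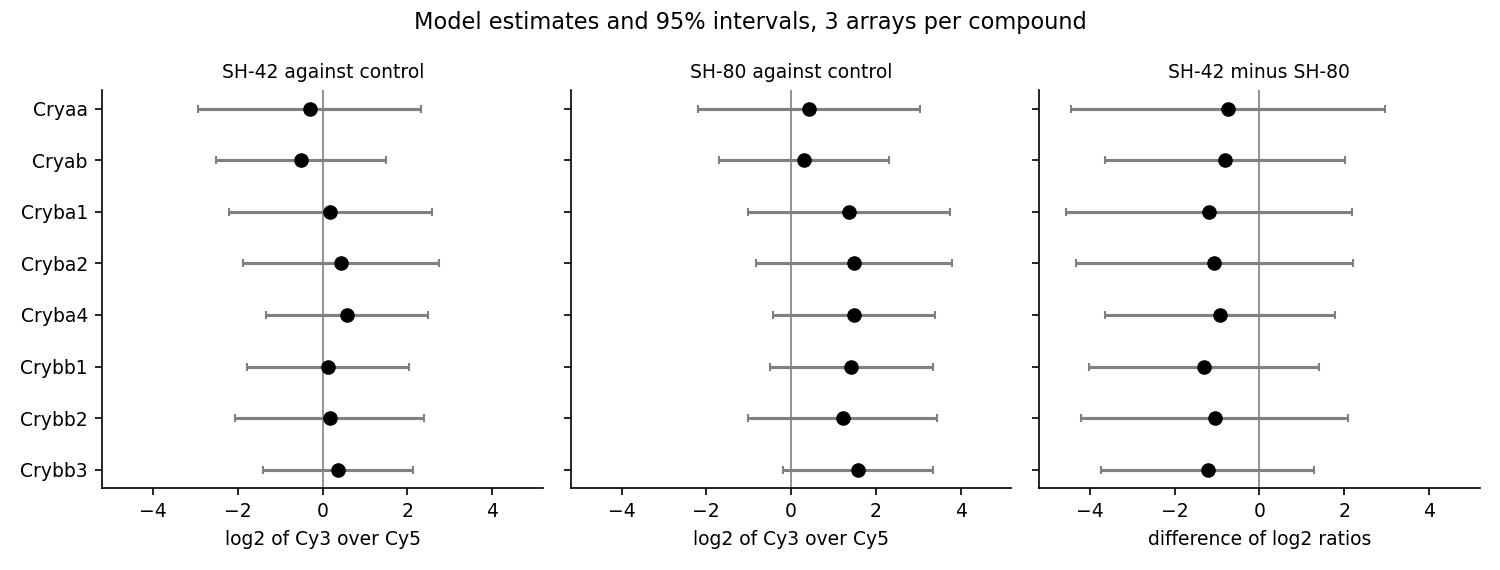
Limma estimates (points) with 95% intervals (bars) for the 8 alpha and beta crystallin genes (vertical axis), on a log2 scale (horizontal axis), for each compound against control and for the difference between the compounds, with 3 arrays per compound. Every interval crosses 0.

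Other lens genes were set beside these values. Of the lens fibre genes without crystallins, 12 of 14 listed were measured. With limma 5 passed as higher in SH-80 against control and 0 as lower, where 4.66% and 10% of all genes tested did so. The 5 were Lgsn at 3.04, the beaded filament gene Bfsp1 at 2.34, Birc7 at 1.76, Lenep at 1.45 and the small heat shock gene Hspb1 at 1.11. Of the gamma crystallins 8 of 8 were measured and 6 passed as higher, all of them gamma A to F. None of these calls, nor those of the lists below, stood without SH-80 replicate 1, 2 or 3 or with the slide as a fixed block, where 0 of all genes passed. In SH-42 against control, 0 genes of either list passed, and the direct comparison of the compounds gave 0 as well. On SH-80 replicate 2 the medians were 1.86 for gamma crystallins A to F, -1.32 for the beta and -2.64 for the alpha crystallins, and on SH-42 replicate 3 they were 1.13, -0.83 and -1.96. On the arrays where all 3 classes were positive the gamma median exceeded the beta median by 0.885 (SH-42 replicate 1), 0.574 (SH-42 replicate 2), 0.740 (SH-80 replicate 1) and 0.671 (SH-80 replicate 3). Those gaps compare with 1.96 on SH-42 replicate 3 and 3.18 on SH-80 replicate 2. The difference between classes was not tested, since the genes were grouped with these values known.

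Of 2297 named genes outside the 8 whose arrays differed by at least 1, the 10 most like the median of the 8 crystallins by Pearson correlation over 6 arrays were Crygs (0.998), Tmem40 (0.998), Glycam1 (0.994), Grifin (0.993), Mip (0.993), Cd24a (0.989), B3gnt5 (0.985), Lim2 (0.982), Bfsp2 (0.976) and Serpind1 (0.974). Crygs, Grifin, Mip, Lim2 and Bfsp2 are genes of lens fibres: a gamma-type crystallin, a lens galectin relative, the lens water channel, a fibre membrane protein and a beaded filament subunit. In all, 15 genes reached a correlation of 0.95 and 40 reached 0.9. Crygs gave 1.32, 0.10 and -1.34, then 2.77, -1.85 and 2.47, and Mip gave 1.78, -0.56 and -1.64, then 3.28, -2.03 and 2.92. Both were low on SH-42 replicate 3 and SH-80 replicate 2, the arrays on which gamma A to F had positive values. The correlations of gamma A to F with the same median were 0.712 (Crygd) to 0.864 (Crygc).

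Single genes had somewhat different nearest patterns. Cryaa was closest to Nwd1 (0.999), B3gnt5 (0.996) and the gamma crystallin Crygn (0.994), and Cryab to Glycam1 (0.991), Nwd1 (0.990) and Cd24a (0.988). Cryba1 and Crybb2 were both closest to Crygs, Tmem40 and Mip, and Cryba2 to Tmem40, Crygs and Glycam1. The nearest to Cryba4 were Glycam1 (0.995), Cd24a and Crygs (0.990 each). Crybb1 and Crybb3 shared Bfsp2 (0.998 and 0.994), Mip and Lim2. Crygn, which was at 0.58, 0.20 and -1.92, then 1.27, -2.61 and 1.18, had its low values on the arrays where the alpha crystallins had theirs.

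Of 16 listed lens regulators 15 were measured, with list medians between -0.24 and 0.07 on the 6 arrays. With limma 2 passed in SH-80 against control, both lower (Six3 at -0.52 and Meis1 at -0.29). Of all genes tested 10% passed as lower there, so nothing about the regulator list is read from these 2. Within that list Foxe3, Pitx3, Maf and Sox1, named after their values were seen, correlated with the crystallin median over the 6 arrays at 0.917, 0.895, 0.881 and 0.851. Among the lens epithelium genes 8 of 9 were measured and 0 passed in any comparison. Their median was -0.07, 0.01 and -0.51 for SH-42 and 0.25, -0.72 and 0.24 for SH-80, lowest on the arrays where the crystallins were lowest. The list was not uniform: its genes ran from -2.02 to 0.15 on SH-42 replicate 3 and from -2.41 to -0.03 on SH-80 replicate 2. On SH-42 replicate 1, where the crystallins were positive, 5 of the 8 were below 0 (lowest -1.51). Foxe3 and Pitx3, which are on the lens epithelium list too, were at -0.80 and -1.27 on SH-42 replicate 3 and at -1.07 and -1.59 on SH-80 replicate 2, and within 0.26 of 0 on the other arrays. Of the small heat shock genes other than the alpha crystallins 6 of 7 were measured. In SH-80 against control Hspb1 passed as higher, and Hspb6 (-0.35) and Hspb9 (-0.26) as lower, where 4.66% and 10% of all genes tested did so.

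Markers of tissues around the retina were read on the same arrays, and their part in the crystallin values was not tested. Skeletal muscle genes, as found in the muscles around the eye (12 of 15 measured), had medians of -2.40, 0.06 and 0.46 for SH-42 and 0.60, -1.82 and 0.55 for SH-80, so they were low on SH-80 replicate 2 with the crystallins and low on SH-42 replicate 1 where the crystallins were high. Cornea and surface epithelium genes (10 of 12 measured) stood at a median of -1.25 on SH-80 replicate 2 and between -0.18 and 0.09 elsewhere. Microglia genes (12 of 13 measured) had medians of -1.67, 0.21 and 1.48, then 1.13, 1.07 and 1.37, and Muller glia and gliosis genes (17 of 17) -1.56, 0.00 and 0.78, then 0.57, 0.23 and 0.35. Neither of these followed the crystallins on SH-80 replicate 2. Gfap, the filament gene of reactive glia, was at -1.97, -0.19 and 1.24, then 1.15, 1.07 and 1.64. In SH-42 against control and in the direct comparison 0 genes of these lists passed. In SH-80 against control Lcn2 and Lif passed as higher, and Glul, Itgam and Trp63 as lower, with 0 muscle genes. Of all genes tested 4.66% passed as higher and 10% as lower there.

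**Figure D5:**
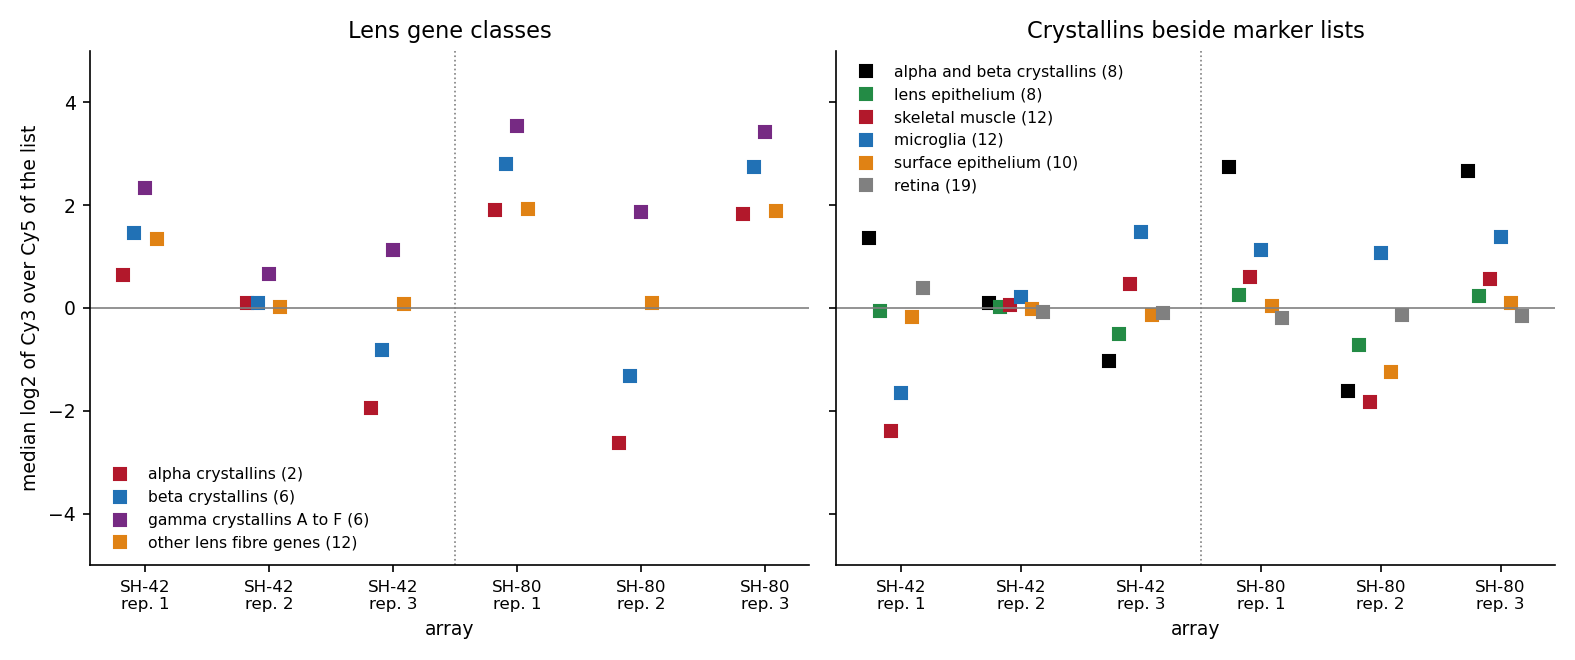
Median log2 ratio of Cy3 over Cy5 (vertical axis) of gene lists on each array (horizontal axis), with the number of genes measured in brackets: lens classes on the left, and the 8 crystallins beside marker lists on the right. On SH-42 replicate 3 and SH-80 replicate 2 the alpha and beta crystallins are below 0 and the gamma crystallins A to F are above it (1.13 and 1.86).

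Markers of the labelled tissue were bright. Of the retina genes 19 of 19 were measured, with a median Cy3 signal (log2) of 13.98 to 14.05 on the 6 arrays. The median of all genes tested was 9.29 to 9.34, and that of the 8 crystallins was 14.92 to 15.36. Bright retina markers thus do not measure how much other tissue the pools held. The retina list's median log ratio lay between -0.20 and 0.39, which compares 2 pools and does not check the tissue. Of the retina list, Arr3, Glul and Lhx1 passed as lower in SH-80 against control, where 10% of all genes tested did so. Nothing about the retina list is read from these calls. The arrays were alike in signal, with 58.3% to 63.1% of probes well above background in Cy3 and 70.9% to 76.7% in Cy5. SH-42 replicate 1 stood apart: its correlation with any other array, over all genes, was between -0.159 and 0.162, where pairs of the other arrays reached 0.471 to 0.866. SH-42 replicates 1 and 2 were on 1 slide, and SH-42 replicate 3 with all SH-80 arrays on the other.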

How the data were processed

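Pooled retina RNA was measured on 6 2-colour Agilent arrays. The deposited scanner files hold linear spot intensity per channel (median signal and median background) made with Agilent Feature Extraction, version 11.0.1.1 per the file headers and 9.3.2.1 per the submitters' processing notes. Their LogRatio column, per the file headers a log10 ratio of Cy5 over Cy3, and the value table the authors deposited, whose values track the log2 of the same ratio (its centring is not stated), were used as alternatives only. Genome coordinates in the files were not used.

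From the intensities, limma 3.58.1 in R 4.3.3 made normexp background correction (offset 50), loess within each array and, for single channels, Aquantile between arrays. Control spots and outlier-marked spots were left out after background correction, and spots of a probe were averaged. A minimum of 3 arrays with a signal well above background, in Cy3 or Cy5, was asked of each probe, and 9972 probes were left out. The brightest probe stands for a gene. Of 39429 probes, 26055 (66.1%) were named through RefSeq accessions (GRCm38.p6 table). The model had 1 coefficient per compound over 6 arrays with lmFit and eBayes, two-sided, Benjamini-Hochberg over 24409 genes, and was tested on simulated data. The number of arrays limits the precision.

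The 8 genes and all gene lists were chosen with earlier results of these data known. The rule for named genes took the 8 members, the 10 genes most correlated with their median, the 3 nearest each member (arrays differing by at least 1), Gfap, and up to 4 genes of smallest p per other list. Hspb2 (a neighbour of Cryab), Foxe3, Pitx3, Maf and Sox1 were named outside it. So were Pmel, Tyrp1, Mlana, Dct, Tyr, Slc45a2 and further genes that complete a count of 5 or fewer.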

Additional observations from a re-analysis of the deposited data

How the results depend on the processing

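No alternative brought any of the 8 crystallin genes past the threshold in any of the 3 comparisons. The alternatives covered background, normalization, filter, probe choice, slide, replicate number, fitting each compound alone and leaving out each array. Over the settings that leave out no array the median log2 ratio of the 8 genes ran from -0.433 to 0.198 for SH-42, from 1.07 to 2.14 for SH-80 and from -2.21 to -0.763 for SH-42 minus SH-80. Without 1 array at a time it ran from -0.495 to 0.758, from 0.625 to 2.72 and from -2.46 to -0.290, with 0 members called throughout. Deviations of same-numbered arrays from the mean of their compound correlated at -0.151, -0.430 and 0.182. Those of differently numbered arrays correlated at -0.301 to 0.345. Deviations within a compound constrain one another, so these values cannot settle how the arrays were paired or which control pools they shared. With the replicate block the medians were 0.172, 1.40 and -1.06, and 0 members and 0 genes passed in each comparison. The number of all genes called moved much more: for SH-42 143 became 9214 with median centring without loess, 4392 with processed signals, 3802 with the deposited value table, 3203 without background subtraction, 429 without SH-42 replicate 1, 79 with the mean of a gene's probes, 4 with scale normalization, 1 without SH-42 replicate 2 and 0 with offset 0, each compound alone, the slide as a fixed block or any 1 other array left out. For SH-80 3587 became 9474 without SH-42 replicate 1, 9306 fitted alone, 5695 with processed signals, 2274 without SH-42 replicate 2, 648 with scale normalization and 0 with the slide as a fixed block or without any 1 SH-80 array. The Cy3 spans of Cryba4, Crybb1 and Crybb3 became 0.145, 0.316 and 0.212 without normalization between arrays. The causes were not tested.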

Other observations

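Genes that share the crystallin name without belonging to the alpha, beta or gamma classes were listed together by name, and 7 of 7 were measured. Their list median lay between -0.40 and 0.09 on the 6 arrays. In SH-80 against control 1 passed with limma, Crybg2, which was lower at -0.38, and in SH-42 against control and between the compounds 0 passed. Of 13 pigment epithelium genes 12 were measured, with medians of -0.20, 0.12 and -0.03 on the SH-42 arrays and 0.48, -0.03 and 0.92 on the SH-80 arrays, and the visual cycle gene Rgr passed as higher in SH-80 against control at 0.67. Of this list Pmel, Tyrp1, Mlana and Dct, melanosome genes named after their values were seen, were at -1.54, -1.32, -1.58 and -1.56 on SH-80 replicate 2. These genes were all positive on SH-80 replicates 1 and 3. Their correlations with the crystallin median over the 6 arrays were 0.946, 0.860, 0.794 and 0.771, and on SH-42 replicate 1, where the crystallins were positive, they stood at 0.28, -0.70, -1.12 and -1.26. Other genes of the list differed: on SH-80 replicate 2 the list had 6 genes above 0 and 6 below. Tyr and Slc45a2 stood at -0.23 and -0.09 there, and Tyr correlated with the crystallin median at 0.286. The part of this list in the crystallin values was not tested. Red cell genes were measured for 3 of 7, and Slc4a1, the red cell anion exchanger, passed as lower in SH-80 against control at -0.35. Of all genes tested 4.66% passed as higher and 10% as lower in that comparison. Nothing about the 3 lists is thus read from the calls of Crybg2, Rgr and Slc4a1.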
